A study of Homo sapiens with 8 samples.

Results

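The Hippo pathway and its transcriptional readout were followed in LX-2 cells, a human hepatic stellate cell (HSC) line, through 10 genes listed by name. They were YAP1 and WWTR1, the paired coactivators (WWTR1 encodes TAZ), the DNA-binding partner TEAD1, the kinase gene LATS2, the scaffold genes AMOTL1 and AMOTL2, and the target genes CTGF, CYR61, ANKRD1 and AXL. CTGF and CYR61 are the older symbols of CCN2 and CCN1. All 10 were among the 25369 genes of the deposited count table, and all 10 were among the 14570 genes with enough counts to be tested. RNA-seq was carried out on wild-type LX-2 cells kept for 2 or 4 days on hydrogel, either a soft matrix of 2 kPa or a stiff matrix of 40 kPa, with 2 libraries per condition and 8 in all. The soft matrix was the reference at each time. LX-2 is a single cultured line, so that the model holds no other liver cell by design.

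In the Hippo pathway, a kinase cascade that ends in LATS1 and LATS2 phosphorylates YAP1 and TAZ, which are then held in the cytoplasm or degraded. When the cascade is low, the coactivators enter the nucleus and bind TEAD proteins at target promoters and enhancers. Stiff substrates, cell spreading and actin tension are classical conditions of nuclear YAP1 and TAZ, and in stellate cells this activity is known from myofibroblast activation. Much of this control acts on the proteins, and RNA-seq reads only the mRNA.

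The bases before the transcription start are shown for CTGF and ANKRD1, since these target genes gave the largest stiff-to-soft differences of the 10 at 4 days and their windows held most of the matches to the TEAD core motif. Both are 250-base RefSeq windows of GRCh38.p14 on the minus strand, read from 5′ to 3′ and ending 1 base before the start site. CTGF lies at chr6:131951373-131951622 and ANKRD1 at chr10:90921088-90921337. Capitals mark the TEAD core GGAATG in both genes. In ANKRD1 alone they also mark 1 match to TGANTCA, the motif searched for AP-1, in which N stands for any base. This match reads TGATTCA, with T at the open base, and no narrower AP-1 motif was searched.
CTGF: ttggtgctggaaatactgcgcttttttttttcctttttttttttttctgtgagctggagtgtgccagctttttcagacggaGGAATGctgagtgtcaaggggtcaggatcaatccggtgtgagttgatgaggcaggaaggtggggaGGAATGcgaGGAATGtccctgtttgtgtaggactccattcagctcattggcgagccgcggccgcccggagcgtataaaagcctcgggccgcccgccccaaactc
ANKRD1: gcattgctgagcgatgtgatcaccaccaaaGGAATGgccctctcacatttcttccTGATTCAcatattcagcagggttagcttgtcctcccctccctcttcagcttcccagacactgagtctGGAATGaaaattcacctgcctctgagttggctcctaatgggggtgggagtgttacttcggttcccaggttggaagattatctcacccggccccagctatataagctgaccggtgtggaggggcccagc
The TEAD core was searched on both strands of 300-base windows, from 250 bases before to 50 bases after the start, and 8 of the 10 genes had such a window. The CTGF window held 3 matches, the first bases of which lay at -169, -104 and -95 from the start. In ANKRD1 there were 2, at -220 and -128, with the AP-1 match at -195. YAP1 held 1 at -162 and LATS2 held 1 at position 10 after the start. The windows of WWTR1, AMOTL1, AMOTL2 and AXL held none, and no window was given for TEAD1 and CYR61. Only 1 window per gene was searched, so any other start site of a gene was not covered. Of all 35116 windows of this length, 14.0% held the TEAD core at least once and 1.37% at least 2 times, while 7.71% held the AP-1 motif. A match is a run of letters and does not show that a factor was bound.

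Sequencing gave 19955975 to 27263935 counts per library. Among the 10 genes, counts per library ranged from 345 for WWTR1 to 28259 for AXL, and these counts set the counting error of each value. Of 13 stellate and fibroblast markers, 9 averaged at least 1 CPM (counts scaled to a library of fixed size), while DES, LRAT, LUM and DCN were below it. The summed level of the 13 was 3246 to 7862 CPM per library, and VIM gave the largest part (condition means of 2016 to 5180 CPM). Next were COL1A1 (588 to 952 CPM) and TAGLN (370 to 756 CPM). All other markers of this list, ACTA2 among them, had condition means of at most 34.4 CPM. None of the 5 hepatocyte markers (0.0352 to 0.518 CPM in sum) or the 4 endothelial markers (0.714 to 1.30 CPM) reached 1 CPM, whereas 2 of 4 macrophage markers (4.11 to 7.78 CPM) and 1 of 3 cholangiocyte markers (9.87 to 19.6 CPM) did.

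The 2 libraries of the stiff matrix at 4 days stood apart from each other, and this touched the 10 genes unequally. Replicate 2 minus replicate 1 on the log2 CPM scale was -1.02 for YAP1, -0.78 for TEAD1, -0.77 for LATS2, -0.62 for AMOTL1, -0.60 for AMOTL2 and -0.43 for WWTR1. It was 0.00 for CTGF, 0.07 for AXL, 0.21 for CYR61 and 0.36 for ANKRD1. The members with the low replicate 2 were thus the upstream genes, of which LATS2 and AMOTL2 are also listed targets. CTGF, AXL, CYR61 and ANKRD1 were similar or higher there. Across all genes tested, the difference between these libraries moved with gene length, with a median of 0.88 in genes under 1000 bases and of -0.52 in genes of 6000 bases or more. Spearman's rho with length across 14570 genes was -0.56 in this pair, 0.47 in the soft pair at 4 days, and 0.19 and -0.04 in the soft and stiff pairs at 2 days. With GC content (14084 genes with a value) rho was 0.33 and -0.20 in the stiff and soft pairs at 4 days, and 0.28 and -0.57 at 2 days. The genes share libraries and are not replicates. The upstream members are long, from 5238 bases for AMOTL2 to 9416 for TEAD1, and CTGF, CYR61 and ANKRD1 are short, from 1974 bases for ANKRD1 to 2343 for CTGF. AXL, at 4900 bases, did not follow this division. Whether length, GC content or the library accounts for any value below was not tested.

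**Figure D1:**
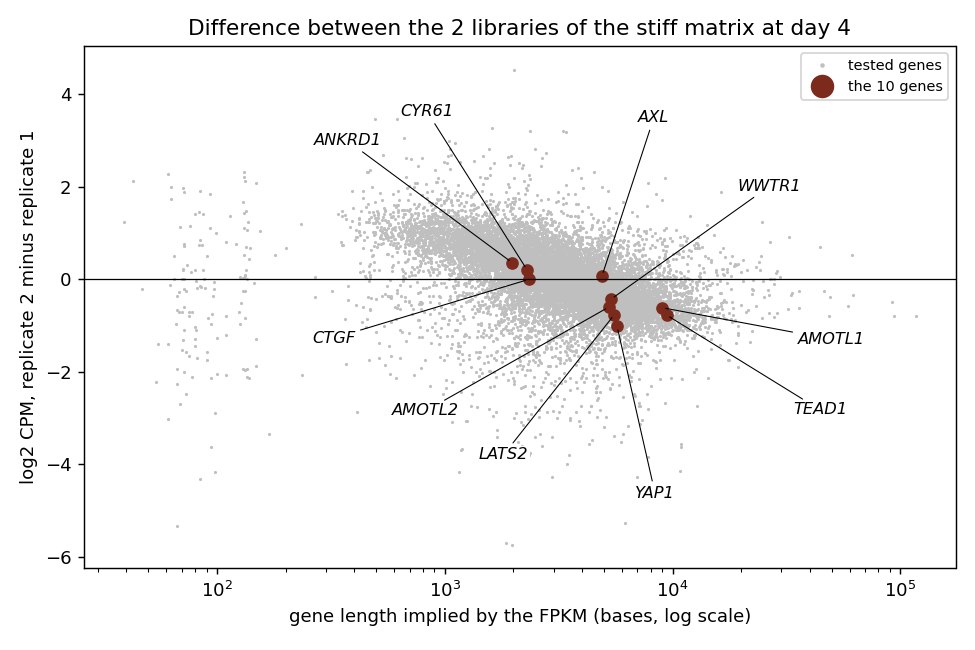
Gene length implied by the deposited values (bases, log axis) against replicate 2 minus replicate 1 of the stiff matrix at 4 days (log2 CPM), with each grey point 1 of 14570 tested genes and the 10 genes in dark red. The grey cloud slopes downwards, and YAP1 (-1.02) lies lowest of the 10 while ANKRD1 (0.36) lies highest.

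Levels were compared between genes only per length, as deposited FPKM. CYR61 and AXL led in every condition, with a mean ± SD of 294 ± 7.85 and 179.5 ± 5.68 FPKM on the soft matrix at 2 days (n = 2). ANKRD1 and CTGF followed, and their libraries overlapped in each of the 4 conditions. Next came YAP1 and AMOTL2, which overlapped on the soft matrix at 2 days and on the stiff matrix at 4 days. TEAD1, LATS2 and AMOTL1 held the next places, and TEAD1 overlapped LATS2 only on the stiff matrix at 4 days. WWTR1 was the lowest of the 10 throughout, with 3.33 ± 0.133 FPKM on the stiff matrix at 2 days and 6.07 ± 0.623 on the soft matrix at 4 days. Its partner YAP1 stood at 39.05 ± 0.999 FPKM on the soft matrix at 2 days, where WWTR1 stood at 3.85 ± 0.0549.

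The coactivator genes were not higher on the stiff matrix by any test. YAP1 (chr11:101981178-102104155, plus strand of GRCh37, as are all gene positions here) had 219 and 227 CPM in the soft libraries and 243 and 232 CPM in the stiff libraries at 2 days. After 4 days the same gene had 229.6 and 313 CPM on the soft matrix and 308 and 152 CPM on the stiff matrix. The stiff libraries were slightly higher without overlap at 2 days, and at 4 days the pairs overlapped, with the lowest YAP1 level of all 8 libraries in the stiff replicate 2 and the highest in the soft replicate 2. The log2 fold change, stiff over soft, was 0.09 (SE 0.30) at 2 days and -0.24 (SE 0.30) at 4 days, with adjusted p = 0.9999 and 0.896 in edgeR's quasi-likelihood fit after Benjamini-Hochberg correction over all genes. Without replicate 1 of the stiff matrix at 4 days the latter was -0.83, and without replicate 2 it was 0.19. In bulk RNA, fewer cells and less RNA per cell cannot be told apart.

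WWTR1 (chr3:149235022-149454501, minus strand) was the one member with lower stiff than soft libraries at both times. At 2 days it had 20.5 and 20.9 CPM on the soft matrix and 17.4 and 18.4 CPM on the stiff matrix. The 4-day values were 30.4 and 35.7 CPM on the soft matrix and 26.8 and 19.9 CPM on the stiff matrix. The pairs did not overlap at either time, but the share of all genes with lower stiff libraries without overlap was not counted. In edgeR's quasi-likelihood fit the difference did not pass at 2 days (log2 fold change -0.21, SE 0.18, adjusted p = 0.9999). Nor did it pass at 4 days in that fit (log2 fold change -0.50, SE 0.18, adjusted p = 0.546). WWTR1 shares exonic bases with the antisense gene WWTR1-AS1, and reads of the pair could not be separated here. YAP1, AMOTL1 and AXL likewise share exonic bases with genes on the opposite strand that have no symbol, and AMOTL2 with the pseudogene RPL39P5 on its own strand.

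TEAD1 (chr11:12695968-12966284, plus strand) encodes the transcription factor through which both coactivators reach DNA. Its level was 170 and 184 CPM on the soft and 195 and 192 CPM on the stiff matrix at 2 days, followed by 124 and 142 CPM on the soft and 167 and 97.4 CPM on the stiff matrix at 4 days. All 4 libraries of the later time were below all 4 of the earlier one, and the 4-day pairs overlapped. The share of all genes with such an order in time was not counted. In edgeR's quasi-likelihood fit the change over time did not pass on the soft matrix (log2 -0.41, SE 0.23, adjusted p = 0.224). Nor did it pass in that fit on the stiff matrix (log2 -0.55, SE 0.23, adjusted p = 0.115). Those contrasts called 27.4% and 27.6% of all genes. The stiff-over-soft log2 fold change was 0.13 (SE 0.23) at 2 days and -0.01 (SE 0.23) at 4 days.

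LATS2 (chr13:21547175-21635725, minus strand) encodes the kinase that phosphorylates YAP1 and TAZ and is itself a listed target of them. It had 59.8 and 57.2 CPM on the soft and 72.7 and 65.4 CPM on the stiff matrix at 2 days, without overlap. At 4 days it had 58.3 and 67.9 CPM on the soft and 90.0 and 52.8 CPM on the stiff matrix, and the stiff libraries enclosed the soft ones. Stiff over soft, the log2 fold changes were 0.24 (SE 0.24) and 0.18 (SE 0.24) at 2 and 4 days.

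The angiomotin-like proteins bind YAP1 and TAZ at junctions and actin. AMOTL1 (chr11:94439597-94609913, plus strand) showed 88.8 and 85.4 CPM on the soft and 93.1 and 94.7 CPM on the stiff matrix at 2 days, and 60.3 and 82.3 CPM on the soft and 79.1 and 51.6 CPM on the stiff matrix at 4 days. AMOTL2 (chr3:134074189-134094321, minus strand), also a listed target, showed 215 and 192 CPM on the soft and 265 and 241 CPM on the stiff matrix at 2 days, and 158 and 181 CPM on the soft and 221 and 145 CPM on the stiff matrix at 4 days. In both genes the stiff libraries were the higher ones at 2 days and overlapped the soft ones at 4 days. Stiff over soft at 2 days, the log2 fold change was 0.11 (SE 0.22) for AMOTL1 and 0.32 (SE 0.20) for AMOTL2. At 4 days it was -0.12 (SE 0.22) and 0.11 (SE 0.20), and no such difference passed the test.

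Of the targets, CTGF (chr6:132269316-132272512, minus strand) encodes a secreted matricellular protein tied to fibrosis and is a standard readout of YAP1 and TAZ. It had 153 and 139.8 CPM on the soft and 209 and 165 CPM on the stiff matrix at 2 days. The later libraries gave 228 and 217 CPM on the soft and 410.5 and 409.6 CPM on the stiff matrix. The stiff pair was higher at both times, and at 4 days its libraries were nearly alike, including the replicate 2 in which YAP1 was lowest. The fold at 4 days was 1.84 (log2 0.88, SE 0.15, adjusted p = 0.0945 in edgeR's quasi-likelihood fit) and that at 2 days was 1.28 (log2 0.35, SE 0.15, adjusted p = 0.9999). The gene shares exonic bases with LINC01013 on the opposite strand.

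CYR61 (chr1:86046444-86050272, plus strand), the second matricellular target, had 689 and 661 CPM on the soft and 821 and 681 CPM on the stiff matrix at 2 days. At 4 days it had 844 and 810.4 CPM on the soft and 1189.9 and 1372 CPM on the stiff matrix. The pairs overlapped at 2 days, and at 4 days the stiff pair was well above the soft one. The fold was 1.11 (log2 0.15, SE 0.15) at 2 days and 1.55 (log2 0.63, SE 0.15, adjusted p = 0.261 in edgeR's quasi-likelihood fit) at 4 days.

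ANKRD1 (chr10:92671853-92680844, minus strand) encodes a stretch-responsive ankyrin repeat protein of nucleus and sarcomere. It had 117 and 131 CPM on the soft and 229 and 173 CPM on the stiff matrix at 2 days, and 188 and 181 CPM on the soft and 313 and 401 CPM on the stiff matrix at 4 days. The stiff libraries were the higher ones at both times without overlap, by the largest fold of the 10 genes. This was 1.61 at 2 days (log2 0.69, SE 0.18, adjusted p = 0.9999) and 1.93 at 4 days (log2 0.95, SE 0.18, adjusted p = 0.14) in edgeR's quasi-likelihood fit.

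AXL (chr19:41725128-41767671, plus strand), a receptor tyrosine kinase for GAS6, was per length the most highly expressed of these targets after CYR61. It had 902 and 859 CPM on the soft and 1186 and 1103 CPM on the stiff matrix at 2 days. By 4 days the values were 1026 and 1039 CPM on the soft and 1103 and 1161 CPM on the stiff matrix. The stiff pair was higher at both times, with the wider gap at 2 days (log2 0.38, SE 0.13) than at 4 days (log2 0.13, SE 0.13), although the difference between the times (log2 -0.25, SE 0.19, adjusted p = 0.9997 in edgeR's quasi-likelihood fit) did not pass.

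**Figure D2:**
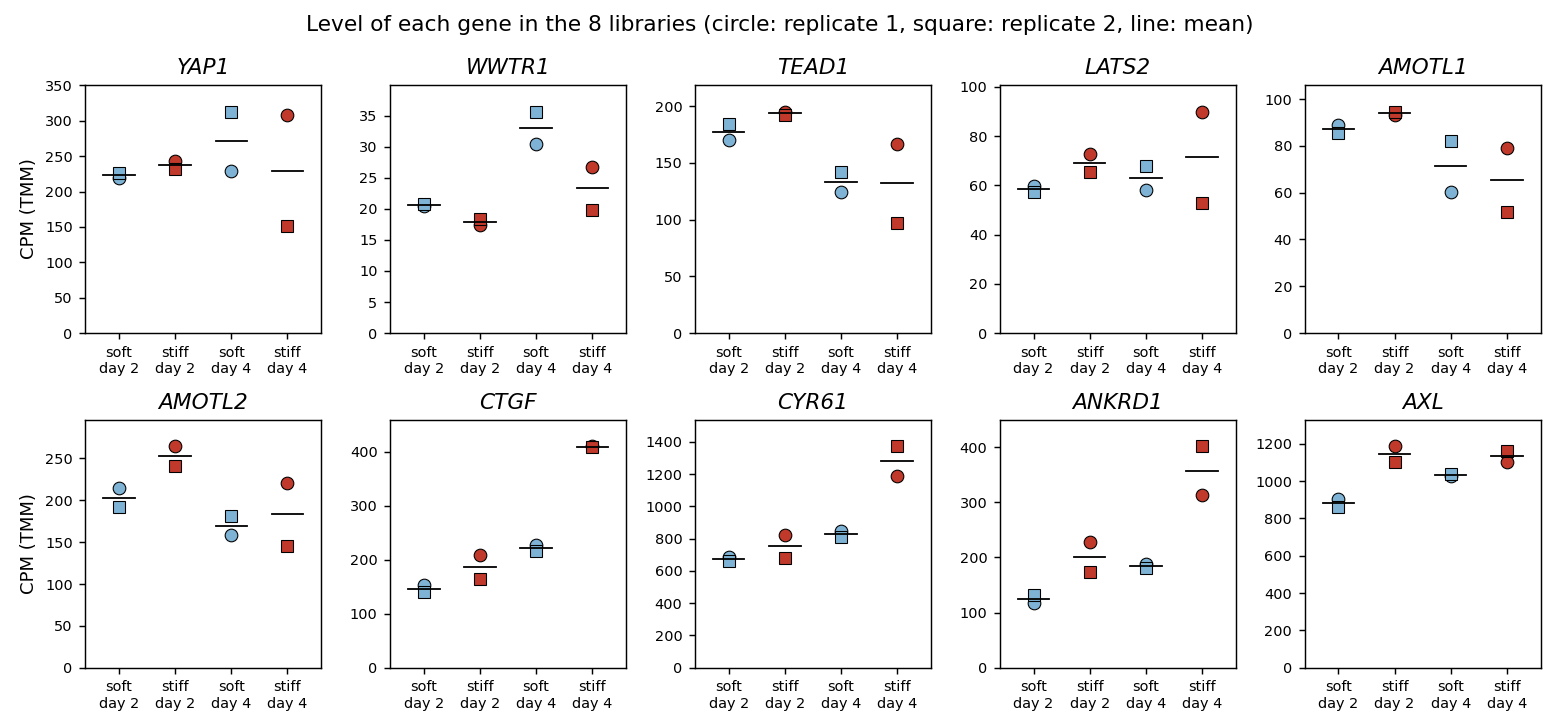
Level of each gene (TMM-normalised CPM, axes from 0) in the 4 conditions, with soft libraries in blue, stiff libraries in red, replicate 1 as a circle, replicate 2 as a square and the mean of 2 libraries as a line. The upstream genes scatter widely on the stiff matrix at 4 days (YAP1 308 and 152 CPM), where CTGF does not (410.5 and 409.6 CPM).

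Counted over the 10 genes at 2 days, 0 passed the adjusted threshold of 0.05 between the matrices, as did 0% of all genes. At an unadjusted p under 0.05 there were 3, ANKRD1, AXL and CTGF, all higher, against 2.82% of all genes. The stiff libraries were higher without overlap in 8 of the 10, and in 25.7% of all genes. The log2 fold change was positive in 9 of 10 (51.7% of all genes), with a median of 0.20 against 0.01 for all genes.

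At 4 days, 0 of the 10 passed at the adjusted threshold, where 0.247% of all genes (36) did. At an unadjusted p under 0.05 there were 4, with CTGF, CYR61 and ANKRD1 higher and WWTR1 lower, against 6.93% of all genes. In 4 genes, the targets CTGF, CYR61, ANKRD1 and AXL, the stiff libraries were higher without overlap, which held for 11.7% of all genes. The median log2 fold change was 0.12 against 0.02 for all genes, with 6 of 10 positive (53.4% of all genes). CTGF, ANKRD1 and AXL were higher without overlap at both times, as were 4.79% of all genes.

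The calls at 4 days depended on the tool and on the stiff pair. DESeq2, the tool of the study, called 3 of the 10, all targets, with adjusted p = 4.71e-05 for CTGF, 0.000935 for ANKRD1 and 0.0118 for CYR61, against 1.24% of all genes. With an offset for gene length in each library, edgeR's quasi-likelihood fit called CTGF (log2 0.86, adjusted p = 0.0232) and ANKRD1 (log2 0.88, adjusted p = 0.0288), against 0.81% of all genes. Over the settings other than leaving out a library, the log2 fold change of CTGF lay between 0.76 and 0.89 and its adjusted p between 4.71e-05 and 1, and ANKRD1 lay between 0.82 and 0.96 with an adjusted p between 0.000935 and 1. Leaving out either stiff library removes their difference from the estimate of the spread, and CTGF, CYR61 and ANKRD1 were called higher both ways. Without replicate 1, 7 of the 10 were called, among them YAP1, WWTR1, TEAD1 and AMOTL1 as lower, while 32.2% of all genes were called. Without replicate 2 there were 4, with LATS2 (log2 0.52) as higher, against 3.69% of all genes. CTGF, CYR61, ANKRD1 and AXL thus stayed higher, and WWTR1 lower, with either stiff library alone. YAP1, TEAD1, AMOTL1 and the also listed targets LATS2 and AMOTL2 did not keep their direction.

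With the times averaged, 0 of the 10 passed between the matrices, against 0.426% of all genes (62). ANKRD1 (log2 0.82, SE 0.13) had an adjusted p = 0.055, CTGF (log2 0.62, SE 0.11) 0.0674 and CYR61 (log2 0.39, SE 0.11) 0.303 in edgeR's quasi-likelihood fit. At an unadjusted p under 0.05 there were 5 of the 10, with AXL as the fourth higher one and WWTR1 as lower, against 7.7% of all genes. DESeq2 called 3, CTGF, CYR61 and ANKRD1, against 1.62% of all genes. Without replicate 1 of the stiff matrix at 4 days 6 were called (20.3% of all genes), and without replicate 2 there were 5 (6.97% of all genes).

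A stiffness effect that differed between 2 and 4 days was called in 0 of the 10 in edgeR's quasi-likelihood fit and in 0 by DESeq2, where 0% and 0.0206% of all genes were called. At an unadjusted p under 0.05 it was 1, CTGF (log2 0.53, SE 0.21), against 1.95% of all genes. Without replicate 1 of the stiff matrix at 4 days, 5 were called, against 21.5% of all genes, with CTGF (0.54) and CYR61 (0.59) positive and YAP1 (-0.91), TEAD1 (-0.57) and AMOTL2 (-0.52) negative.

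**Figure D3:**
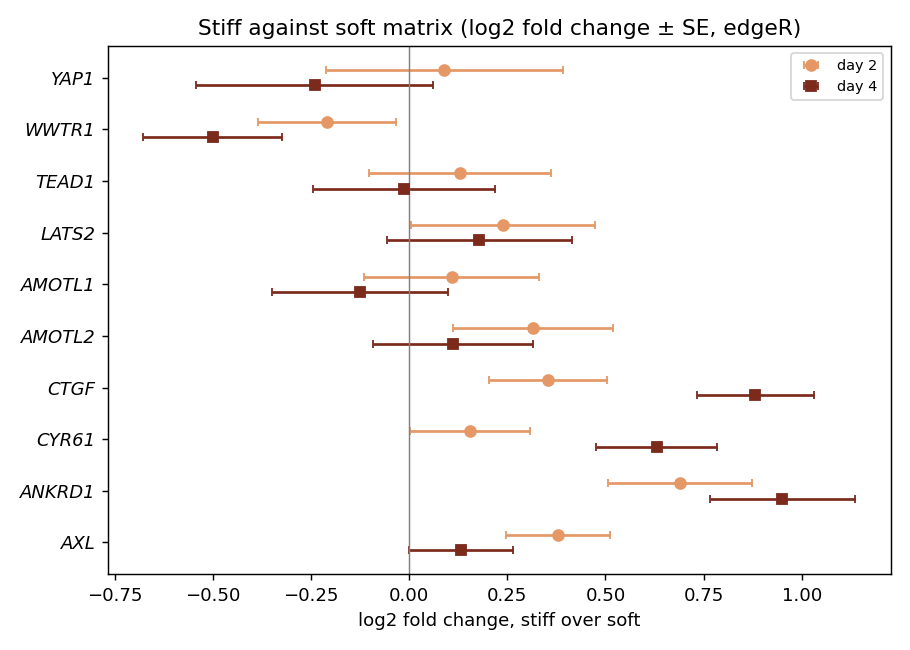
Log2 fold change of stiff over soft for each gene at 2 days (circles) and 4 days (squares), with bars of 1 standard error from edgeR. CTGF (0.88), ANKRD1 (0.95) and CYR61 (0.63) stand to the right at 4 days, WWTR1 (-0.50) to the left, and none passed the adjusted threshold.

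Between the times, some of the 10 were called, as were many genes of any kind. On the soft matrix, from 2 to 4 days, 2 of the 10 rose and 0 fell, against 27.4% of all genes called in either direction. They were WWTR1 (1.60-fold, log2 0.68, SE 0.18, adjusted p = 0.0262) and CTGF (1.52-fold, log2 0.60, SE 0.15, adjusted p = 0.0222) in edgeR's quasi-likelihood fit. ANKRD1 had 1.49-fold higher levels (adjusted p = 0.0529). These calls rested on few libraries: without any 1 of the 4 soft libraries 0 of the 10 were called, with an adjusted p of 0.0944 to 0.139 for CTGF and of 0.0771 to 0.167 for WWTR1. All genes were then called at 2.42% and 8.35% without replicate 1 and 2 of 2 days, and at 7.2% and 8.48% without those of 4 days. The WWTR1 call was also absent without either stiff library of 2 days (0.0623 and 0.0624). Without replicate 1 or replicate 2 of the stiff matrix at 4 days, which did not enter the contrast, 7 were called, among them TEAD1, AMOTL1 and AMOTL2 as lower, while 54.4% and 54.2% of all genes were called.

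On the stiff matrix, 3 of the 10 rose and 0 fell, against 27.6% of all genes, so that on neither matrix was the share of the 10 far from that of all genes. These were the targets CTGF (2.19-fold, log2 1.13, SE 0.15, adjusted p = 0.00301), CYR61 (1.71-fold, log2 0.77, SE 0.15, adjusted p = 0.0111) and ANKRD1 (1.78-fold, log2 0.83, SE 0.18, adjusted p = 0.0154) in edgeR's quasi-likelihood fit. AXL was level over time here, with a log2 fold change of -0.02 (SE 0.13). The upstream genes TEAD1 (-0.55, SE 0.23), AMOTL1 (-0.52, SE 0.22) and AMOTL2 (-0.46, SE 0.20) had negative log2 fold changes on the stiff matrix that did not pass. In a fit of the 4 stiff libraries alone, 0 were called (1.34% of all genes), with adjusted p = 0.0597 for CTGF and 0.106 for CYR61 and ANKRD1. Without replicate 2 of the stiff matrix at 2 days only CTGF was called (adjusted p = 0.0496, 3.31% of all genes), and without replicate 1 CYR61 was lost (0.0536). Without replicate 1 of the stiff matrix at 4 days 8 were called (53.6% of all genes) and without replicate 2 there were 6 (45.1% of all genes), CTGF, CYR61 and ANKRD1 being higher both ways and LATS2 and YAP1 being lower in the first case and higher in the second.

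**Figure D4:**
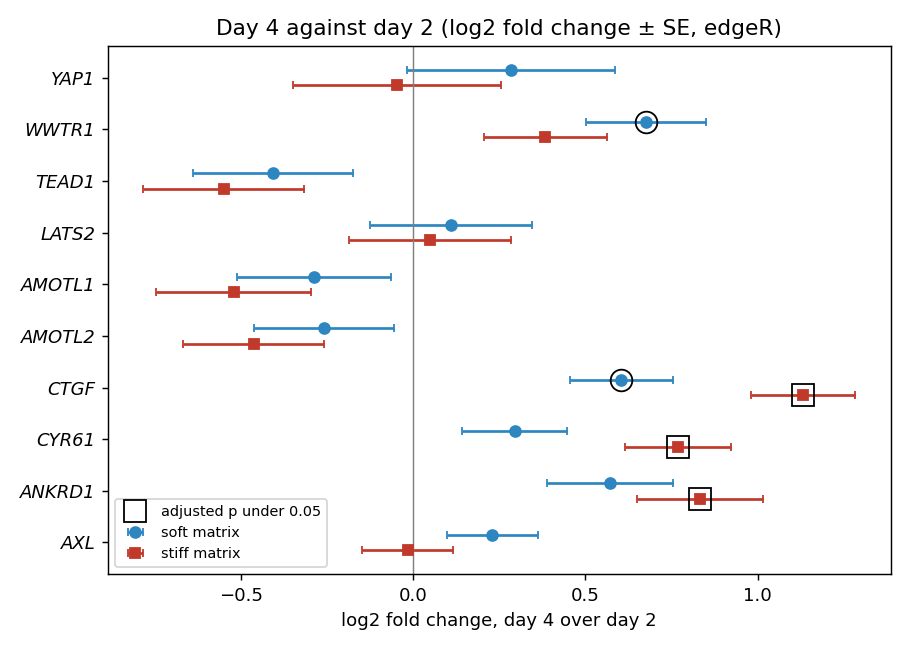
Log2 fold change of day 4 over day 2 for each gene on the soft (blue circles) and the stiff matrix (red squares), with bars of 1 standard error from edgeR and open black outlines around values that passed the adjusted threshold. WWTR1 (0.68) and CTGF (0.60) passed on the soft matrix, and CTGF (1.13), ANKRD1 (0.83) and CYR61 (0.77) on the stiff matrix.

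The rest of the pathway was read from lists of 24 further Hippo regulators, 7 further coactivator or TEAD-partner genes (6 tested) and 16 further conserved YAP and TAZ targets, with PTPN14 in the first and the last. Between the matrices at 2 days none of them passed in edgeR's quasi-likelihood fit, with 2 targets and no other gene at an unadjusted p under 0.05, and a fit of the 2-day libraries alone called 5 regulators and 5 targets, against 4.52% of all genes. At 4 days the fit of all 8 libraries called no regulator or partner, with 1 of each at an unadjusted p under 0.05. DESeq2 called 1 regulator, offsets for length and GC content gave 1 partner (0.899% of all genes), and without replicate 1 of the stiff matrix at 4 days 13 regulators and 2 partners were called (without replicate 2, 2 and 1). Among the targets IGFBP3, a secreted binding protein of insulin-like growth factors, was the one call. It had 38.7 and 35.1 CPM on the soft and 75.3 and 88.3 CPM on the stiff matrix at 4 days, without overlap. The fold was 2.22 (log2 1.15, SE 0.15, adjusted p = 0.0362 in edgeR's quasi-likelihood fit). The number of called targets was 0 without any 1 of the libraries of 2 days or of the soft matrix at 4 days (0% to 0.13% of all genes), 9 without replicate 1 of the stiff matrix at 4 days and 5 without replicate 2, when 32.2% and 3.69% of all genes were called. The 16 targets had a median log2 fold change of 0.21 at 2 days and 0.08 at 4 days, against 0.01 and 0.02 for all genes.

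Over time, 2 of 24 regulators rose and 2 fell on the soft matrix, and 4 rose and 4 fell on the stiff matrix. STK3, the MST2 kinase, and MOB1B, a LATS cofactor, rose on both, STK3 by 1.85-fold on the soft and 1.99-fold on the stiff matrix. WWC3, a KIBRA family scaffold, and the kinase gene TAOK2 fell on both, WWC3 to 0.605 and 0.419 of its level at 2 days. On the stiff matrix SAV1, the MST scaffold, and NF2, which encodes merlin, also passed as higher (1.58-fold and 1.72-fold), and PTPN14, a phosphatase that binds YAP1, and the protocadherin FAT1 passed as lower (0.497 and 0.389 of the earlier level). These counts moved with the libraries: the 4 regulators called on the soft matrix became 0 or 1 without any 1 of the soft libraries, 2 without either stiff library of 2 days (16.9% and 16.8% of all genes) and 13 or 14 without a stiff library of 4 days. The 8 on the stiff matrix became 1 and 0 without replicate 1 and 2 of the stiff matrix at 2 days (6.02% and 3.31% of all genes), 5 without either soft library of 2 days (17.1% and 17.2%), and 18 and 14 without those of 4 days. A separate fit of each matrix called 13 regulators on the soft matrix, against 49.9% of all genes, and 0 on the stiff matrix, against 1.34%.

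Among the partner genes, VGLL3, a TEAD cofactor, rose 4.00-fold on the soft and 4.01-fold on the stiff matrix, and TEAD3 fell to 0.645 and 0.683 of its level at 2 days. VGLL2 also passed as higher on both, but with 1 to 25 counts per library. Of the 16 targets, 6 rose and 2 fell on the soft matrix, and 5 rose and 4 fell on the stiff matrix. F3 (tissue factor), IGFBP3, the growth factor TGFB2, RBMS3 and the kinase NUAK2 rose on both, TGFB2 by 3.64-fold and 4.68-fold and F3 by 2.54-fold and 3.08-fold. FJX1 and ARHGEF17 fell on both, NT5E (CD73) passed as higher on the soft matrix, and PTPN14 and DOCK5 passed as lower on the stiff matrix. These counts moved in the same direction as the share of all genes called. The 8 targets and 3 partners called on the soft matrix became fewer without any 1 of the soft libraries. They became more without either stiff library of 4 days. The 9 targets on the stiff matrix became fewer without either stiff library of 2 days and more without either of 4 days. A fit of the stiff libraries alone called 3 targets, against 1.34% of all genes. The 3 partners on the stiff matrix became fewer without any 1 of the libraries of 2 days, and more without replicate 1 of the stiff matrix at 4 days. The time comparisons called 27.4% and 27.6% of all genes on the soft and the stiff matrix. Beside these shares stand 8 and 9 of 16 targets, 3 and 3 of 6 partners, and 4 and 8 of 24 regulators. The targets and partners thus had the higher shares, but the lists are short, and a difference from other genes was not tested.

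The genes whose log2 CPM most resembled 3 of the targets were sought among 9966 well-expressed genes over the 8 libraries, which share 4 conditions, so that Pearson's r is a description. For CTGF these were UAP1 (0.99), CCBE1 (0.99), DUSP14 (0.98), CYR61 (0.98) and UBE2G2 (0.98). For CYR61 they were ADM, DUSP14, CCBE1, CTGF and CTPS1, all at 0.98 to 0.99, so that each of the matricellular genes was in the other's list. ANKRD1 ran closest to FAM210A, NCL, HBEGF, RSL1D1 and HSPA9 (0.98 to 0.99), and with CTGF at 0.94 and CYR61 at 0.95. Within the 10 genes, TEAD1, AMOTL1 and AMOTL2 formed the other close group, with r of 0.89 to 0.95 over the 8 libraries. YAP1 stood at -0.10 with CTGF, -0.25 with CYR61 and -0.23 with ANKRD1, and WWTR1 at 0.23, 0.14 and 0.01. All these values include replicate 2 of the stiff matrix at 4 days. There the upstream members were low against replicate 1, and CTGF, CYR61 and ANKRD1 were similar or higher. How far r depends on that library was not tested.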

How the data were processed

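Counts per gene were deposited by the authors, who trimmed reads with Trim Galore, mapped them to hg19 with STAR 2.7.1a and counted them with HTSeq, without normalization. The labels name a NEBNext Ultra kit. The annotation and strand setting are not given in the sources used here, so reads of overlapping genes could not be separated. The authors also deposited FPKM, which are scaled by size factors, and the lengths they imply were whole numbers (tolerance 0.01) in 100% of 20029 genes. Conditions came from the labels, and the stiffness in kPa from the results of the study, where it is approximate. The labels do not say whether the 2 libraries of a condition came from separate cultures, while the study states independent experiments.

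From the counts, edgeR 4.0.16 (R 4.3.3) filtered genes by filterByExpr, applied TMM factors (0.8704 to 1.08) and fitted a quasi-likelihood model of 4 conditions to all 8 libraries. Benjamini-Hochberg adjustment ran over 14570 genes, and calls were made under 0.05. Log2 CPM used a prior count of 2. The test was run on simulated counts in which 200 genes were raised on the stiff matrix at 4 days. Those counts held no other change between the days, and calls were counted without a length slope. The check therefore does not cover these features of the data. Alternatives were DESeq2 1.42.0, limma 3.58.1 on log2(FPKM + 1) or log2(FPKM + 0.1), with an FPKM minimum of 1 or none, RLE or no factors, other count filters, separate fits, a 2-fold threshold, a replicate block and each library left out. Chosen after seeing the data were a crossed block, offsets from splines (5 degrees of freedom) of gene length or of length and GC content, and voom with sample quality weights. Deviations of same-numbered libraries correlated at -0.04 (2 days) and -0.49 (4 days) across the matrices, and at 0.08 and 0.02 across the times. The main fit did not use the replicate numbers as pairs. With 2 libraries per condition, these values cannot show whether the experiments were paired. The 10 genes and the lists were chosen with earlier results of these data known. Named were the 10 genes, every listed gene called in a comparison (at most 8 per list, by smallest p) and the 5 genes most correlated with each of CTGF, CYR61 and ANKRD1 at an average log2 CPM of at least 3. Gene positions were from GENCODE v44lift37 on GRCh37, and promoter windows from RefSeq on GRCh38.p14.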

Additional observations from a re-analysis of the deposited data

How the results depend on the processing

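Of the 10 genes, 0 were called between the matrices at 2 days. This became 4 in a fit of the 4 libraries compared and 2 with voom and sample quality weights, and leaving out a library gave 0 to 1. At 4 days, where 0 were called, DESeq2 gave 3, offsets for gene length 2, offsets for gene length and GC content 2, and leaving out a library 0 to 7. Averaged over days, 0 became 3 with DESeq2, 1 without a filter on low counts, 2 with offsets for gene length, 3 with offsets for length and GC content, and 0 to 6 without a library. The difference of the stiffness effect between the days stayed at 0 in the settings that kept all 8 libraries and ran from 0 to 5 without a library. For day 4 against day 2 on the soft matrix, 2 became 1 without scaling factors, 1 in limma without a filter, 0 with a 2-fold threshold, 4 in a separate fit, 6 and 4 with the offsets, 4 with voom, and 0 to 7 without a library, and was 2 to 3 in the other settings apart from the replicate block. On the stiff matrix, 3 became 0 in a separate fit, 1 with a 2-fold threshold, 7 with offsets for gene length, and 1 to 8 without a library, and was 2 to 4 in the other settings. Over time on the soft matrix, 49.9% of all genes were called in the separate fit and 49.1% with voom. The offsets gave 41.9% and 28.6%. It was 24.5% without scaling factors, 16.7% in limma without a filter and 10.8% with a 2-fold threshold. On the stiff matrix it was 1.34% in the separate fit, 11.2% with a 2-fold threshold and 41.2% with offsets for gene length. The replicate block moved only the soft comparison of the days, from 2 to 1 (18% of all genes). Same-numbered libraries did not deviate alike. The numbers at 4 days were also crossed, since same-numbered libraries deviated in opposite directions there. This called 1 of the 10 at 4 days and 2 over the averaged days (0.426% and 0.618% of all genes). Between the matrices at 2 days, 4.52% of all genes were called in the separate fit and 1.28% with voom. At 4 days it was 1.24% with DESeq2, and 0.81% and 0.899% with the offsets. Averaged over days it was 1.62% with DESeq2, 0.369% without a filter, and 1.43% and 1.76% with the offsets.

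Signs turned only where the fit of all 8 libraries had made no call. Leaving out a library, stiff over soft at 4 days ran from -0.83 to 0.19 for YAP1, -0.44 to 0.33 for TEAD1, -0.25 to 0.52 for LATS2, -0.46 to 0.16 for AMOTL1 and -0.21 to 0.39 for AMOTL2 on the log2 scale. Averaged over days the ranges were -0.37 to 0.13 for YAP1, -0.16 to 0.23 for TEAD1, -0.0070 to 0.37 for LATS2 and -0.18 to 0.13 for AMOTL1. The differences of the effect between the days were -0.91 to 0.11 for YAP1, -0.57 to 0.21 for TEAD1, -0.48 to 0.29 for LATS2, -0.56 to 0.060 for AMOTL1 and -0.52 to 0.084 for AMOTL2. Over time, LATS2 ran from -0.0057 to 0.19 on the soft and from -0.39 to 0.38 on the stiff matrix, where YAP1 ran from -0.65 to 0.37 and AXL from -0.068 to 0.037. Small values also turned under other settings. TEAD1 became 0.039 and 0.044 at 4 days with the offsets, -0.024 averaged over days without scaling factors, and 0.0094 and 0.028 in the difference between days with the offsets. LATS2 on the stiff matrix became -0.057 without scaling factors, -0.0096 in limma on log2(FPKM + 1) with or without a filter and -0.014 with log2(FPKM + 0.1), and with the offsets its difference between days became 0.033 and 0.0011. AMOTL2 on the soft matrix over time became 0.042 with offsets for length and GC content, and AXL on the stiff matrix became 0.018 and 0.25 with the offsets. CTGF, CYR61, ANKRD1 and WWTR1 kept their signs in every comparison and setting run. The cause of these changes was not tested, except that a fit without a stiff library of 4 days has by construction no difference between those libraries in its spread.

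Over all genes, the number called at 4 days between the matrices was 36 and ran from 0 to 180 over the other settings and from 0 to 4686 without a library. At 2 days it was 0, with 0 to 659 and 0 to 118. Averaged over days it was 62, with 29 to 257 and 0 to 2963, and for the difference between days 0, with 0 to 11 and 0 to 3137. On the soft matrix over time 3985 became 1570 to 7272 and 353 to 7920, and on the stiff matrix 4024 became 195 to 6009 and 482 to 7806. Without scaling factors the median log2 fold change of all genes shifted to at most -0.104. In single libraries, 7 to 9 of the 9 neighbouring pairs in the FPKM order of a condition kept their order. Groups of 2 libraries allow no test of a divergent library.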
